A study of Mus musculus with 8 samples.

Results

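The data described here are the endothelial nuclei of cultured mouse pancreatic islets, taken as the 6 columns of a single nucleus RNA-seq table that the depositors assigned to endothelial cells, of 54 columns in all. The table holds 9 cell types in each of 6 conditions and 17362 genes. Hand-picked islets came from wild type (WT) mice or from mice with a whole-body knock-in of Med14 S983A, called mutant below, in which a serine of the Mediator scaffold subunit Med14 is replaced by alanine. For either genotype there was an untreated pool (CON), a pool exposed to forskolin (FSK) and a pool exposed to the GLP-1 receptor agonist Exendin-4 (Ex-4, 10 nM, 16 h). The 3 WT and the 3 mutant conditions therefore differ in the Med14 allele in every cell of the islet, not in endothelium alone, and all 6 share collagenase isolation and culture without blood flow. The study's text gives FSK the same duration as Ex-4, and its dose on islets and the age of the mice are not given in the sources used here.

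Islets are densely vascularised, and their capillaries are lined by a thin, fenestrated endothelium that lies against the endocrine cells. Endocrine cells secrete VEGF-A, and its receptors Flt1 and Kdr on endothelium hold the capillary bed in place, while the endothelium lays down the basement membrane on which beta cells sit. FSK activates adenylyl cyclase directly and can raise cAMP in any cell, whereas Ex-4 acts on cells that carry the GLP-1 receptor. In endothelium, cAMP is known for tightening junctions through protein kinase A and the Epac exchange factors.

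Each condition and cell type has 1 pooled value per gene and no replicate. No test between conditions was possible, so differences are given as ratios with 95% exact counting intervals, which cover counting error only. Condition cannot be told apart from islet preparation and from the barcode wells in which it was placed. The 8 sequenced sublibraries each hold all 6 conditions and are not replicates.

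The endothelial columns of WT CON, FSK and Ex-4 held 122420, 62177 and 55536 counts, and those of mutant CON, FSK and Ex-4 held 159305, 144461 and 151867. The shallow columns were the treated WT ones, where 7301 genes (FSK) and 7735 genes (Ex-4) were detected against 9543 in the untreated pool. The mutant columns had 11219, 10749 and 10216 genes detected in CON, FSK and Ex-4. Levels below are counts per 10000 counts of a column (CP10K). Of all genes, 2341 had at least 60 counts over the 6 endothelial columns and were kept for comparisons.

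The promoters of 3 endothelial genes serve here as examples, chosen because the first 2 genes belong to the results on identity and the other is among the genes higher with FSK in both genotypes. Each is 300 bases, 250 before to 50 after the annotated start, from RefSeq on build GRCm38.p6, printed 5′ to 3′ on the gene's minus strand. Flt1 lies at chr5:147725962-147726261, Kdr at chr5:75978406-75978705 and Efnb2 at chr8:8661193-8661492 for these windows. Capitals mark the cAMP response element (TGACGTCA) and its short form (TGACG), both searched on both strands, where the short form overlaps the full element.
Flt1: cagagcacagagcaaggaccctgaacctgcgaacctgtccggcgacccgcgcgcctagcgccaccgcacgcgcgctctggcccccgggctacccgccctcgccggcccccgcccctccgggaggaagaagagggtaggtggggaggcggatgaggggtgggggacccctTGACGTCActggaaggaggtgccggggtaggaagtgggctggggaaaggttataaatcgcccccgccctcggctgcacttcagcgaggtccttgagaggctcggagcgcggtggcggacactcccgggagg
Kdr: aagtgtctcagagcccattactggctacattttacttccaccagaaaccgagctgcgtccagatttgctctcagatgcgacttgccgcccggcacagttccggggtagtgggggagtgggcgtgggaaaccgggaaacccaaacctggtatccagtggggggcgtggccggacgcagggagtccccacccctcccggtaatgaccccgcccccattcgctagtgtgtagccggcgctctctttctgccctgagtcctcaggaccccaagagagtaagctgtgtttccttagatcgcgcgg
Efnb2: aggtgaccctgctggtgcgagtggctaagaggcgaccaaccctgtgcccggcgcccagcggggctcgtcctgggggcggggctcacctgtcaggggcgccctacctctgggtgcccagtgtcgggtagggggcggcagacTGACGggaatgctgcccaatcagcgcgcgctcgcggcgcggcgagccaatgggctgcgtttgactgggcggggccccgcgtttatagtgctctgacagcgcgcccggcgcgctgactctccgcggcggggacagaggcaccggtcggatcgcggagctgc

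Flt1 held the full element 81 bases before its start, the Efnb2 window held 1 short form 110 bases before the start, and the Kdr window held neither. The full element was present in 588 of 32851 promoters (1.79%) and the short form in 20.8%. Counted by gene, the full element was in 3.11% and the short form in 37.8% of the 1866 kept genes that had a promoter in the table. Among the 71 identity genes defined below, 52 had a promoter, of which 1, Flt1, held the full element and 16 (30.8%) the short form. Of the 15 with a promoter among the 19 genes higher with FSK in both genotypes, 1 held the full element and 2 (13.3%), Efnb2 included, the short form, so Efnb2 does not stand for that set in this respect. GGAA, the core letters bound by ETS factors, was in 96.0% of all promoters and so separated nothing. A match of letters is a description of the sequence only.

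Med14 itself was counted sparsely, at 1.14, 2.89 and 0.540 CP10K in the WT pools (CON, FSK, Ex-4) and 1.13, 0.761 and 0.461 in the mutant pools in that order. WT FSK stood highest and the untreated mutant pool over the untreated WT pool gave a ratio of 0.988 (interval 0.464 to 2.15). Gene counts do not read the S983A substitution, so the genotype is not checked by them. Med14 lies at chrX:12541605-12628584 (minus strand, GRCm39, the build of the files).

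The 4 markers given for the label were each highest in endothelial nuclei over the 6 conditions, although 2 of them were listed at 0 in some conditions. Flt1, the decoy and signalling receptor for VEGF-A, reached 37.4 CP10K over the 6 conditions against 0.614 in neurons, the next cell type, a 60.9-fold difference. Pecam1, the junctional adhesion molecule CD31, reached 15.1 CP10K and stood 38.7-fold above the next type. Kdr, the main signalling VEGF receptor, reached 11.4 CP10K and at least 19.5 times the next type. Plvap, the protein of fenestral diaphragms, was the weak marker of the 4, with 71 counts in all. As nuclei are compared with other nuclei of the same clustering, these values describe the label and do not test it.

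By condition, Flt1 stood at 51.9, 49.1 and 39.4 CP10K in WT CON, FSK and Ex-4, and at 29.3, 45.8 and 20.7 in mutant CON, FSK and Ex-4. It was thus lower in untreated and Ex-4 mutant pools than in any of the other 4. Pecam1 was steadier, at 16.7, 16.9 and 18.2 CP10K in the WT pools and 13.9, 16.8 and 11.8 in the mutant ones. Flt1 lies at chr5:147498414-147662826 and Pecam1 at chr11:106543689-106641454, both on the minus strand of GRCm39.

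Kdr was listed at 0 in WT FSK and held 15.8, 16.2, 11.7, 13.3 and 8.63 CP10K in WT CON, WT Ex-4, mutant CON, mutant FSK and mutant Ex-4. In WT FSK no cell type held a count of it, nor of Cdh5, which codes for VE-cadherin, or the vascular secreted protein Egfl7. Cdh5 held 12.2, 13.0, 11.2, 20.01 and 7.97 CP10K in the same other 5 pools. Genes at 0 in every cell type of a condition numbered from 387 in mutant FSK to 5918 in mutant Ex-4, and 52 of the 2341 kept genes were at 0 in at least 1 condition, with 40 such genes in either treated WT pool. Such zeros were taken as a property of the table and not as a level, so no ratio is given for them, and Kdr, Cdh5 and Egfl7 have no FSK ratio in WT.

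**Figure D1:**
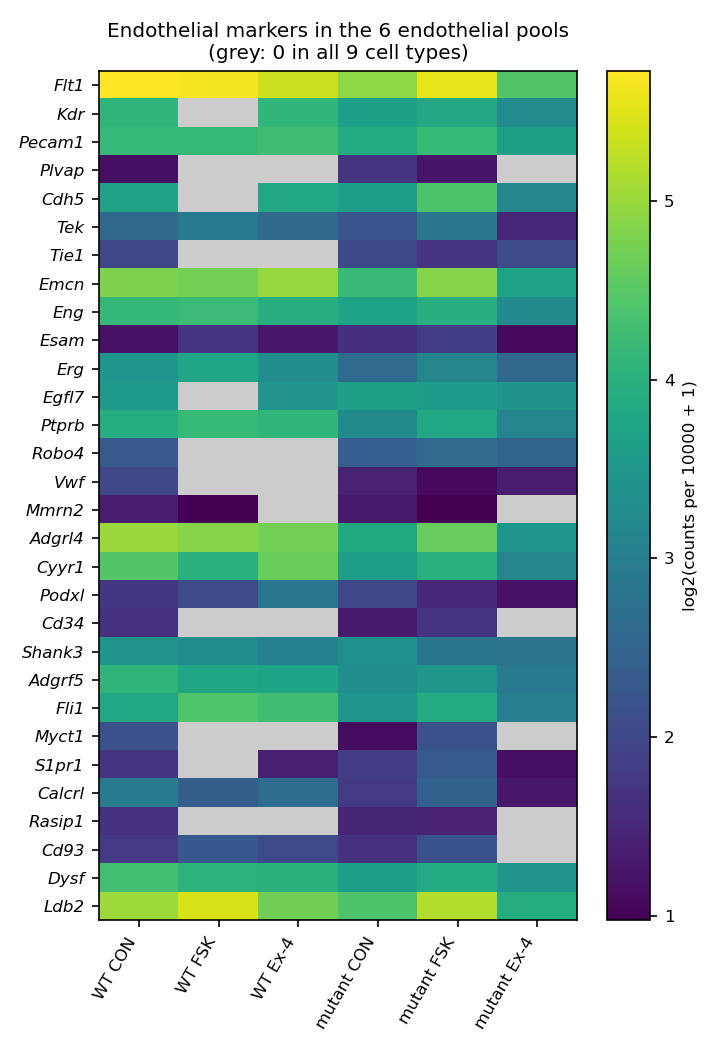
Levels of the endothelial markers with at least 60 counts (rows) in the 6 endothelial pools (columns), coloured by log2(CP10K + 1), with grey where no cell type of that condition held a count. Grey cells fall in the treated WT pools and in mutant Ex-4, and Flt1 was the brightest row.

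Plvap shared this pattern and was listed at 0 in WT FSK, WT Ex-4 and mutant Ex-4, with 1.23 CP10K in WT CON, 2.26 in mutant CON and 1.38 in mutant FSK. The progenitor and tip antigen Cd34, the nidogen Nid2 and the vascular genes Myct1 and Rasip1 were at 0 in the same 3 conditions. Vwf, the clotting glycoprotein of endothelial granules, the orphan receptor Tie1 and the guidance receptor Robo4 were at 0 in WT FSK and WT Ex-4. Edn1, which codes for the vasoconstrictor endothelin-1, was at 0 in all 3 WT conditions and held 3.83, 4.22 and 3.69 CP10K in mutant CON, FSK and Ex-4. No genotype difference in Edn1 is read from this, since no cell type of the WT conditions held a count.

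Beyond the given markers, 71 kept genes were at least 4-fold higher in endothelial nuclei than in the highest of the other 8 cell types, and 185 were at least 2-fold higher. Of the 71, 50 were highest in endothelium in 6 of 6 conditions and 62 in 5 or more. After Flt1 and Pecam1, the leading genes were the vascular phosphatase Ptprb (11.6 CP10K, 41.6-fold), the endomucin gene Emcn (21.7, at least 37.2-fold), the adhesion receptor Adgrl4 (20.2, at least 34.6-fold) and the Cdc42 exchange factor Fgd5 (7.09, 31.7-fold). The Notch receptor Notch4 was 21.4-fold, Cdh5 at least 19.96-fold, the Ras exchange factor Rasgrp3 at least 18.6-fold and Angpt2, the angiopoietin that antagonises Tek signalling, at least 17.0-fold. Folds given as at least were taken against the floor of 3 counts, because the limiting ductal pool of 51442 counts held none, and that floor is 0.583 CP10K.

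The remaining genes among the 15 of greatest fold were Cyyr1 (at least 24.6-fold), the sialyltransferase gene St6galnac3 (19.0-fold), Egfl7 (at least 16.7-fold) and the Rac exchange factor Prex2 (14.7-fold). The threshold cut through a continuous range, with Tcf4 (4.09-fold), Tie1 (4.09) and Adamts9 (4.08) just inside and Prickle2 (3.96), 2610203C22Rik (3.90) and Pgm2l1 (3.84) just outside. The ductal pool set the fold for 38 of the 71 genes, neurons for 15 and muscle cells for 12, so the sparse types decided most of these values.

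**Figure D2:**
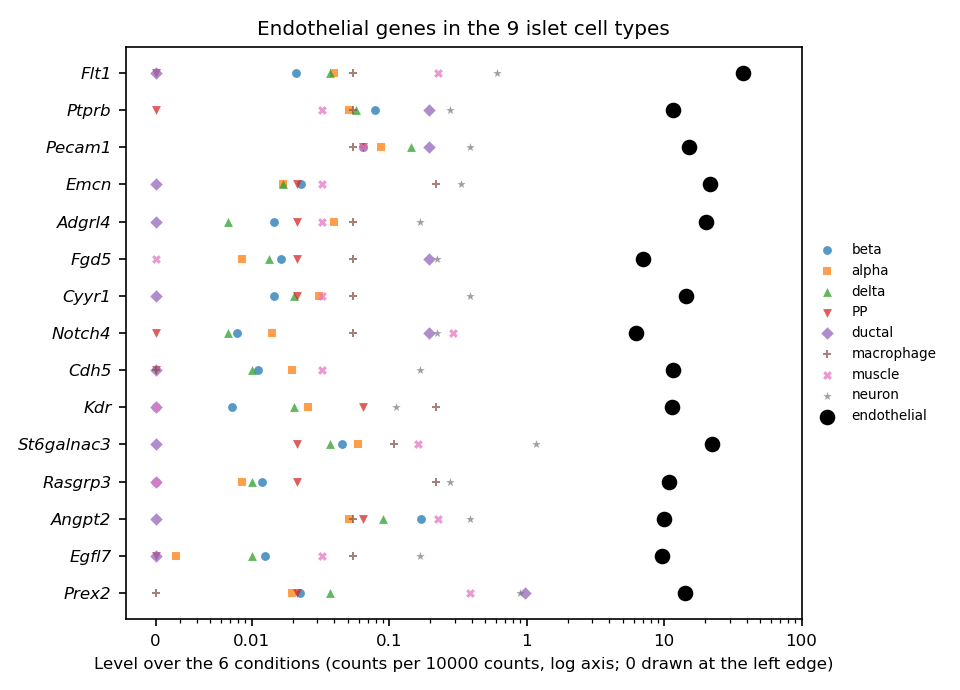
Levels over the 6 conditions (CP10K, log axis, 0 at the left edge) of the 15 genes of greatest fold in endothelial nuclei (black) and in the other 8 cell types (coloured marks). Endothelial levels lie from 6.28 for Notch4 to 37.4 for Flt1, to the right of every other type.

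Other parts of the vascular programme were shared with further cell types to varying degrees. Among transcription factors, the ETS member Erg was an identity gene (7.503 CP10K, at least 12.9-fold), whereas Fli1 stood at 12.3 CP10K in endothelium and 13.9 in macrophages. The basement membrane genes Col4a1 and Col4a2 were shared with muscle cells, at 23.8 and 26.8 CP10K in endothelium and 19.98 and 16.9 in muscle. The laminin Lama4 (8.70 CP10K) and the proteoglycan Hspg2 (10.6 CP10K, 4.64-fold) were higher in endothelium than in any other type.

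Most of the genes that would place the nuclei in an artery, vein or lymphatic vessel could not be read. Of the arterial list, 3 of 12 genes were kept (Efnb2, Dll4, Unc5b), of the venous list 2 of 8, and of the lymphatic list only Flt4 of 7, while Lyve1 and Pdpn had no count. Of the tip-cell list, 6 of 11 were kept, led by Angpt2 and Esm1.

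Markers of other cells were checked as whole lists. Of 10 macrophage markers, 7 were in the table, 5 of these, among them Csf1r and Ptprc, were at 0 in all 6 endothelial pools, and the list held 4 counts. The mural list held 60 counts over 8 of 10 genes, with Notch3 and Tagln at 0. The 4 Schwann markers in the table held 15 counts, the 6 ductal markers 13 counts with Sox9 at 0, and the 5 fibroblast markers 84 counts, 78 of them from Bicc1. Many of these genes were at 0 in every cell type of some condition. Those measured in all 6 conditions were 1 of 7 macrophage, 0 of 8 mural, 2 of 5 fibroblast, 3 of 6 ductal and 3 of 4 Schwann genes, so the low sums do not measure how much RNA of these cells the pools held.

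Endocrine transcripts were a different case. The 11 beta-cell markers made up 0.243%, 0.0643% and 0.0486% of endothelial counts in the WT pools (CON, FSK, Ex-4) and 0.151%, 0.138% and 0.273% in the mutant ones. They were lowest in the treated WT pools and highest in mutant Ex-4. Ptprn2, a secretory granule phosphatase of endocrine cells, was an example, at 13.8, 3.22 and 2.52 CP10K in WT CON, FSK and Ex-4 and 7.47, 7.199 and 15.1 in the mutant pools. Beta nuclei held 62.5 CP10K of it untreated in WT and 38.3 with Ex-4 in the mutant. The part of these transcripts in the comparisons below was not tested.

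Counts of a list of rRNA-linked and mitochondrial genes also moved between conditions. The list includes Rn18s-rs5, Cmss1, Lars2, Camk1d and Gm19951, and it also holds the 7SK RNA Rn7sk, which is neither. Its genes took 2.83%, 3.80% and 4.57% of endothelial counts in WT CON, FSK and Ex-4 and 7.90%, 2.95% and 13.2% in mutant CON, FSK and Ex-4. In beta nuclei the WT shares were 3.26%, 2.49% and 8.73% and the mutant shares 11.03%, 2.45% and 14.1%. The untreated and Ex-4 mutant pools were the high ones in both cell types.

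The identity genes were lowest in those same 2 mutant pools. The 56 of the 71 that were measured in all 6 conditions took 8.37%, 9.89% and 8.06% of endothelial counts in WT CON, FSK and Ex-4, and 5.37%, 7.87% and 3.87% in mutant CON, FSK and Ex-4. Without the rRNA-linked and mitochondrial genes in the total the WT shares were 8.61%, 10.3% and 8.45% and the mutant shares 5.83%, 8.11% and 4.46%, so the order of the conditions was the same. Whether the endocrine and rRNA-linked transcripts had a part in this order was not tested.

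**Figure D3:**
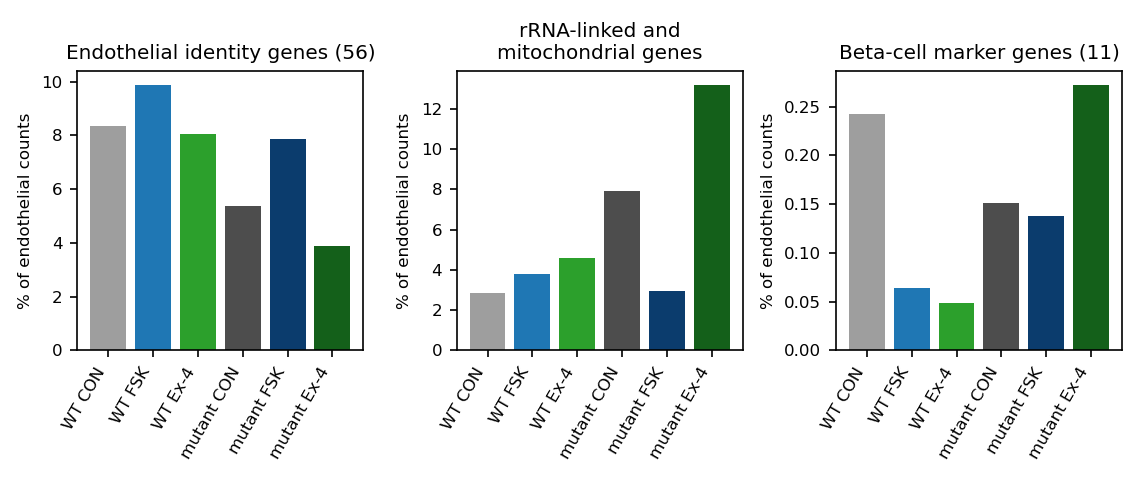
Share of endothelial counts (percent, bars) taken by the 56 identity genes, the rRNA-linked and mitochondrial genes and the 11 beta-cell markers in the 6 pools. Mutant CON and mutant Ex-4 have the 2 lowest bars for identity genes, 5.37% and 3.87%, and the 2 highest for rRNA-linked genes, 7.90% and 13.2%.

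Endothelial counts formed 3.02%, 1.55% and 1.37% of all counts of WT CON, FSK and Ex-4, and 4.25%, 3.54% and 4.16% of those of mutant CON, FSK and Ex-4. As a share of the non-endocrine counts the WT values were 61.1%, 36.3% and 34.4% and the mutant values 50.2%, 53.0% and 51.7%. Both treated WT pools were thus low and the mutant pools were close together. In pools of counts, fewer nuclei of a type and less RNA per nucleus cannot be told apart.

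FSK in WT islets was compared first, as the condition that can reach endothelium directly. Angpt2, Efnb2, Thbs1 and Cdh13 were each more than 2-fold higher in WT FSK than in WT CON, and no identity gene with a ratio was 2-fold lower. Beside these, several genes of endocrine cells were lower. Of 2301 measured genes, 141 (6.13%) were at least 2-fold higher and 258 (11.2%) at least 2-fold lower. With the genes listed at 0 in a whole condition counted as well, 437 genes passed 2-fold, 141 higher and 296 lower. The split between higher and lower kept its direction at a minimum of 30 counts (347 and 824) and of 120 counts (40 and 101). With no minimum and zeros set to a floor of 3 counts it turned, to 2942 higher and 1014 lower. It turned under that setting in 6 of the 7 comparisons, and a floor in counts is a higher level in the shallower WT FSK column.

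Angpt2 stood at 9.97 CP10K in WT CON and 23.5 in WT FSK, a ratio of 2.36 (1.84 to 3.02). It was also higher in beta nuclei (5.46), the 1 other type with at least 20 counts of it, so this difference was not particular to endothelium. Efnb2, the ephrin ligand that marks arterial endothelium, went from 7.92 to 16.9 CP10K (2.13, 1.60 to 2.84). Thbs1, the anti-angiogenic matrix protein thrombospondin-1, went from 7.19 to 17.4 CP10K (2.42, 1.81 to 3.24). Cdh13, the GPI-anchored T-cadherin, was 22.2 and 46.5 CP10K (2.09, 1.77 to 2.48). The counting interval of each stayed above 1.5, but no replicate spread stands beside it. Mecom, a zinc finger factor of arterial and other endothelium picked here after its values were seen, was 40.4 and 75.6 CP10K (1.87, 1.64 to 2.13).

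The identity genes as a list moved little. Of the 56 with a ratio, 5 were 2-fold higher, Angpt2, Efnb2, Cdh13, Fat4 and Thbs1, and 0 lower, with a median ratio of 1.11 against 1.02 over all measured genes. That share is near the 6.13% of all genes. Of the 26 wider endothelial markers kept, 17 had a ratio and 0 passed 2-fold. The VEGF co-receptor Nrp1 was at 9.01 CP10K against 18.3 (0.492, 0.360 to 0.662), while Flt1 gave 0.946 (0.822 to 1.09) and Tek, the angiopoietin receptor, 1.30 (0.855 to 1.96).

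By the rule used for naming, which ranks genes by the interval bound nearest to 1, the leaders in WT FSK were not vascular. Rn7sk, the small RNA that holds P-TEFb inactive, was 1.39 and 7.56 CP10K (5.44, 3.07 to 10.1) and was also 2-fold higher in 6 of 6 other cell types with at least 20 counts. Cdk8, the Mediator kinase, was 19.3 and 53.9 CP10K (2.79, 2.36 to 3.32), Gm19951 6.45 and 17.7 (2.74, 2.03 to 3.71) and the transcriptional cofactor Gse1 5.64 and 15.6 (2.77, 2.01 to 3.83). Plekhg5, Dpysl3 and Tmpo rested on 9, 14 and 10 counts against 1, 4 and 2. Angpt2 completed the 8.

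Among the 8 lowest, Ptprn2 had 3.22 CP10K against 13.8 (0.233, 0.139 to 0.371), and Ddc, the decarboxylase that makes dopamine and serotonin, had 0 counts against 21. The laminin receptor subunit Itga6 had 1 count against 33 (0.0597, 0.00147 to 0.356), the amino acid transporter Slc16a10 and the neuregulin Nrg1 had 0 counts against 26 and 25, and Mpzl1 had 1 against 36. Auts2 had 7 against 83 and A230057D06Rik 2 against 57. Of the 5 beta markers kept, 4 were at least 2-fold lower (Iapp, Slc2a2, Slc30a8, Ptprn2), as was Gcg, the glucagon gene, at 0.643 against 2.53 CP10K.

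FSK in the mutant was compared with mutant CON, and shares no column with the WT comparison. The same 3 genes Angpt2, Efnb2 and Cdh13 were more than 2-fold higher, and they were joined by the endothelin receptor Ednrb and the cyclic nucleotide phosphodiesterases Pde10a, Pde4d and Pde4b. Of 2341 measured genes, 188 (8.03%) were at least 2-fold higher and 100 (4.27%) at least 2-fold lower, 288 in all. The median ratio over these genes was 1.08, or 0.12 on the log2 scale, and with that median set to 0 the split was 130 higher and 135 lower.

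Angpt2 stood at 4.46 CP10K in mutant CON and 14.6 in mutant FSK (3.28, 2.49 to 4.35), Efnb2 at 5.96 and 12.3 (2.05, 1.59 to 2.66) and Cdh13 at 14.4 and 32.5 (2.25, 1.92 to 2.65). In beta nuclei Angpt2 gave 3.40 for the same comparison. Thbs1 stayed under the threshold, at 6.59 and 11.5 CP10K (1.74, 1.36 to 2.25). In both genotypes the FSK pool was the highest of 3 for all 4 genes, as the panels of levels by condition show for Angpt2, Efnb2 and Thbs1. The WT FSK level was above the mutant FSK level for each, with Angpt2 at a ratio of 0.622 (0.501 to 0.774) for mutant over WT FSK.

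**Figure D4:**
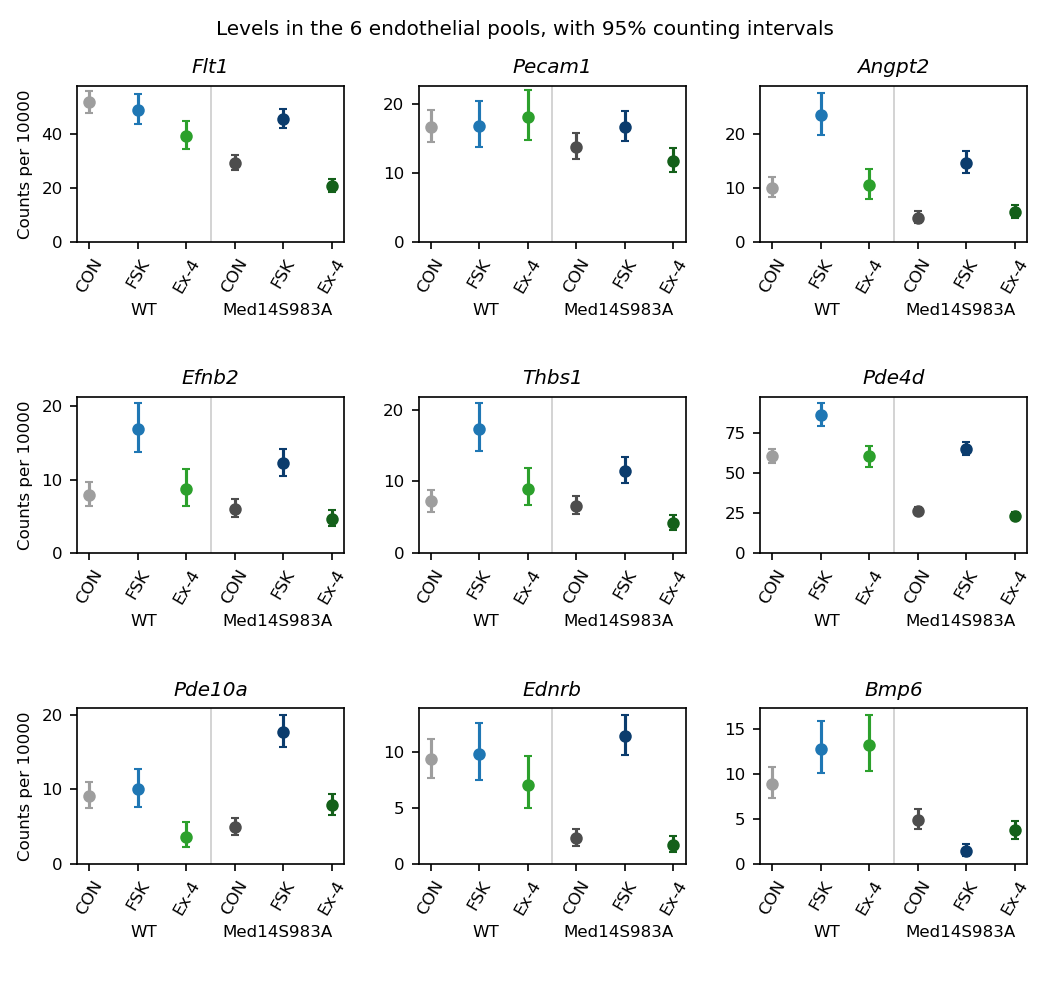
Levels (CP10K, linear axes from 0) of 9 genes in the 6 endothelial pools, each point 1 pool with its 95% Poisson counting interval, WT at left and Med14S983A at right. For Angpt2, Efnb2 and Thbs1 the FSK point is the highest of 3 in both genotypes, while Pde10a and Ednrb are higher with FSK in the mutant panels, at 17.7 and 11.4.

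Ednrb, the endothelin B receptor, had 2.26 CP10K untreated and 11.4 with FSK in the mutant (5.05, 3.51 to 7.47), and 9.31 and 9.81 in WT (1.05, 0.759 to 1.45). The FSK levels of the genotypes were thus close, and the untreated levels were apart. Pde10a gave 4.90 and 17.7 CP10K in the mutant (3.62, 2.80 to 4.73) and 9.07 and 9.97 in WT (1.10, 0.793 to 1.51). In beta nuclei Pde10a was higher with FSK in both genotypes, at 30.9 and 107 CP10K (WT) and 22.5 and 106 (mutant), and with FSK in the mutant it was 2-fold higher in 7 of 7 other types with enough counts. Pde4d, an abundant cAMP phosphodiesterase of endothelium, gave 26.2 and 65.1 CP10K in the mutant (2.49, 2.22 to 2.80) and 60.7 and 86.4 in WT (1.42, 1.27 to 1.59).

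Fn1, the fibronectin gene, led the list in the mutant with 12 counts in CON and 150 in FSK (13.8, 7.66 to 27.3). In the other 4 conditions no cell type held a count, so its level there is not known. The carbonic anhydrase-like Car10 (6.98), the chromatin protein gene Hmga2 (6.80), the collagen receptor Itga2 (5.64), Pgm2l1 (5.62) and the scaffold Dlg2 (4.84) completed the 8. For Hmga2, no cell type held a count in WT FSK or WT Ex-4. Fn1, Hmga2 and Pgm2l1 had 150 of 162, 37 of 60 and 51 of 104 counts in mutant FSK. They reached the minimum of 60 counts only through that pool, so the filter itself favoured a high ratio for them. On the low side, Mlxipl, the glucose-responsive factor ChREBP, had 0.277 against 3.64 CP10K (0.0761, 0.0200 to 0.205) and was 2-fold lower in 6 of 6 other types.

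The other genes on the low side were mostly rRNA-linked or moved in all types. Rn18s-rs5 gave 158 against 496 CP10K (0.318, 0.304 to 0.334), Gphn 34.5 against 100.2 (0.344) and Lars2 36.3 against 103 (0.352), each 2-fold lower in 8 of 8 other types. Gm19951 and Camk1d gave 0.243 and 0.346. Pcsk5, a proprotein convertase, had 3 counts against 30 (0.110, 0.0215 to 0.355) and the ephrin receptor Ephb1 17 against 81 (0.231, 0.129 to 0.394).

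The identity genes had 8 of 71 at least 2-fold higher and 1 lower in the mutant, where all genes had 8.03% and 4.27%, with a list median of 1.30 against 1.08. The 8 were Angpt2, Efnb2, Cdh13, Fat4, the semaphorin receptor Plxna4 (20.2 and 47.2 CP10K), Cables1, the tip-cell proteoglycan Esm1 and Col13a1. Flt1 gave 1.56 (1.39 to 1.76), Emcn 1.64 (1.402 to 1.92) and Cdh5 1.78 (1.47 to 2.16). This comparison and that of the untreated genotypes below share the mutant CON column.

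Across the genotypes, 19 genes were at least 2-fold higher with FSK in both, which is 13.5% of the 141 in WT and 10.5% of the 181 in the mutant that were measured in both. Over all 2301 genes measured in both, 6.13% were higher in WT and 7.87% in the mutant. They were Angpt2, Efnb2, Cdh13, Fat4, Fgf13, Itga3, Peli1, Peli2, Yy1, Cbfb, Tspan7, Snx13, St7, Ctdp1, Myo5a, Bmp2k, Mindy4, Dlg2 and Msra. The first 4 are identity genes. Another 21 genes were lower in both (8.14% of those lower in WT and 21.2% of those lower in the mutant, where 11.2% and 4.30% of all genes were lower), among them, named after their values were seen, Pparg, Mlxipl, Pcsk5, the TGF-beta ligand Tgfb2 and the platelet endothelial receptor Pear1. Pparg, a nuclear receptor active in capillary endothelium, gave 0.151 (0.0299 to 0.476) in WT and 0.394 (0.111 to 1.16) in the mutant. In opposite directions, 25 genes were lower with FSK in WT and higher in the mutant (9.69% of those lower in WT, 13.8% of those higher in the mutant), among them Gcg, Iapp and Ddc. Another 6 were higher in WT and lower in the mutant, Cdk8, Gm19951, Pnisr, Tec, Rexo1 and Samd12. They are 4.26% of those higher in WT and 6.06% of those lower in the mutant. The shares in opposite directions are near those over all genes.

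**Figure D5:**
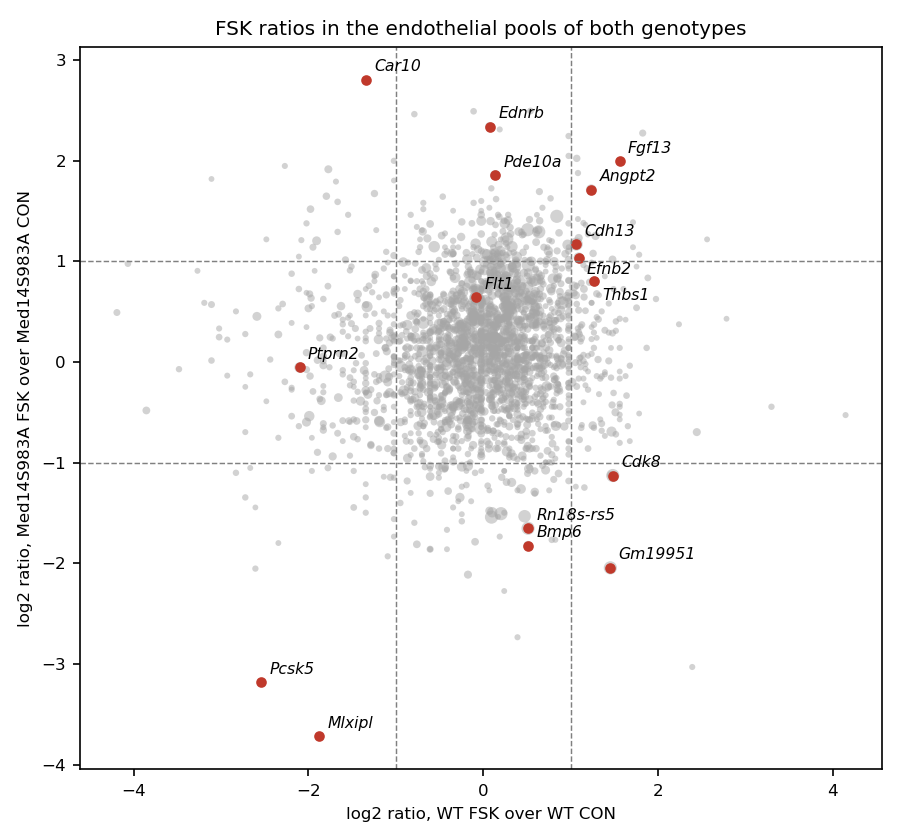
log2 ratio of FSK over CON in WT (x axis) and in the mutant (y axis) for the 2294 kept genes with a count in all 4 pools, dashed lines at 2-fold, larger grey points for more counts, red labelled genes picked after their values were seen. Angpt2, Efnb2, Cdh13 and Fgf13 lie beyond 2-fold on both axes, and Cdk8 and Gm19951 are higher in WT and lower in the mutant.

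The cAMP pathway genes were read from a list of 33. Of these 13 were kept, with 0 higher and 2 lower in WT FSK (Gnas, Prkar1a) and 3 higher and 0 lower in mutant FSK, the 3 phosphodiesterases. Over all measured genes 6.13% were higher and 11.2% lower in WT FSK, and 8.03% and 4.27% in mutant FSK. The 2 lower in WT are thus near the share over all genes. Gnas, the stimulatory G protein subunit, gave 0.369 (0.159 to 0.761) in WT and 1.60 (1.13 to 2.27) in the mutant. Rapgef3 and Rapgef4, the Epac exchange factors, stood at 2.44 and 13.3 CP10K over all conditions. Of 23 genes commonly induced by cAMP, such as Crem, Nr4a1, Sik1 and Per1, 5 reached 60 counts, and of these the AP-1 member Fosl2 alone passed 2-fold with FSK, in the mutant. Fosl2 gave 3.35 and 6.11 CP10K in WT (1.82, 1.14 to 2.91) and 1.51 and 3.67 in the mutant (2.44, 1.48 to 4.12). Crem, with 40 counts, and Nr4a1, with 39 over 6 pools, fell below that minimum. No ratio was taken for them, so their response was not read.

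Ex-4 acts on cells with the GLP-1 receptor, and Glp1r held 71 counts in the endothelial pools, 1.02 CP10K, against 6.997 in beta nuclei and 3.01 in neurons. The delta, macrophage and muscle pools held 1.23, 1.20 and 1.07 CP10K, close to the endothelial level. In endothelial pools Glp1r was at least 2-fold lower in WT Ex-4 than in WT CON, and at least 2-fold higher in mutant than in WT Ex-4 (a ratio of 3.84). Both comparisons rest on the same WT Ex-4 column, the shallowest at 55536 counts. Few of the 71 Glp1r counts lay there, so neither change is read as a response of the receptor. Of the 5 beta markers kept, 4 were lower in the former comparison and 5 higher in the latter. Whether the Glp1r counts came from endothelium was not tested. Calcrl, the adrenomedullin receptor component, was the better counted cAMP-linked receptor, at 3.75 CP10K.

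In WT Ex-4 against WT CON the identity genes were on balance close to their untreated levels, and the 8 genes named on the low side are known from endocrine and neuronal cells. Of 2301 measured genes, 149 (6.48%) were at least 2-fold higher and 242 (10.5%) at least 2-fold lower. With genes listed at 0 in a whole condition the count was 429, 149 higher and 280 lower. This comparison shares WT CON with the FSK one in WT.

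Flt1 gave 0.760 (0.649 to 0.888), Pecam1 1.09 (0.847 to 1.38), Kdr 1.02 (0.787 to 1.32) and Angpt2 1.05 (0.753 to 1.44). The identity list had 1 of 63 genes 2-fold higher and 2 lower, with a median of 0.977 against 1.00 over all genes. The 1 higher was Podxl, the podocalyxin sialomucin, at 2.29 and 6.12 CP10K (2.68, 1.58 to 4.58). Plat, which codes for tissue plasminogen activator, gave 1.23 and 3.96 CP10K (3.23, 1.60 to 6.70). Both are among the 8 named on the high side, with Plekhg5, Ap1s2, Dnaaf9, Cmss1, the kinase gene Rock1 and Hnrnpl.

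On the low side stood Slc2a2, the beta-cell glucose transporter, with 0 counts against 33 (a ratio of 0, interval 0 to 0.261). Ptprn2 gave 0.183 (0.0977 to 0.315) and Pcsk2, the prohormone convertase, 3.24 against 14.9 CP10K (0.217, 0.126 to 0.352). The channels and exocytosis genes Trpm3 (0.0894), Kcnmb2 (0.105), Cacnb2 (0.0864), Asic2 (0.0580) and Erc2 (0 counts against 27) completed the 8. Of the 7 other types with enough counts of Ptprn2, it was 2-fold lower in 1.

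In mutant Ex-4 against mutant CON, endothelial genes were on balance lower and several genes of endocrine cells higher. Of 2319 measured genes 86 (3.71%) were at least 2-fold higher and 123 (5.3%) at least 2-fold lower, and 231 with those listed at 0 in a whole condition, 86 higher and 145 lower. The median ratio was 0.918, or -0.12 on the log2 scale. With that median set to 0 the split was 132 higher and 110 lower, and with columns rescaled without the rRNA-linked and mitochondrial genes it was 115 and 121.

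Flt1 gave 0.708 (0.611 to 0.818), Emcn 0.708 (0.584 to 0.858) and Tek 0.490 (0.301 to 0.779). Of 70 identity genes with a ratio, 62 were below 1, with a median of 0.725. Over all measured genes the median was 0.918, so most of these were below 1 too. Only 3 of the 70 identity genes passed 2-fold, St6galnac3, Podxl and Tek, all lower, which is near the 5.3% of all genes that were lower. The junctional adhesion molecule Jam2 led the low side with 0.395 against 2.07 CP10K (0.191, 0.0653 to 0.461). The small GTPase Rhoj (0.361, 0.211 to 0.593) and the stem cell factor Kitl (0.345, 0.210 to 0.548) are further endothelial genes there, with Disc1, Tbl1x, Fermt2, Atf2 and Sh3rf1.

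On the high side Rian, an imprinted noncoding RNA, gave 2.44 against 0.314 CP10K (7.76, 3.04 to 25.3) and Abcc8, the sulfonylurea receptor of beta cells, 9.28 against 3.83 (2.42, 1.78 to 3.33). Gm19951 (2.07) and Cmss1 (1.89) are rRNA-linked, and Car10, Fmn2, Map3k15 and Elapor1 completed the 8. Of the genes measured in both genotypes, 6 were higher with Ex-4 in both and 15 lower in both, while 46 were lower in WT and higher in the mutant. The 46 include Gcg, Pcsk2, Abcc8, Ptprn2 and Cpe, and make up 19.0% of the genes lower in WT and 54.1% of those higher in the mutant. Over all 2299 genes measured in both, 10.5% were lower in WT and 3.70% higher in the mutant. Another 8 genes, Podxl and Plekhg5 among them, were higher in WT and lower in the mutant. They are 5.37% of the genes higher in WT, where 5.26% of all genes were lower in the mutant. The 6 higher in both are 4.03% of those higher in WT, against 3.70% of all in the mutant. The 15 lower in both are 6.20% of those lower in WT, against 5.26% of all. The counts of 6, 15 and 8 are thus near the shares over all genes.

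The genotypes were compared in the untreated pools. Mutant CON had lower levels of many endothelial genes and higher levels of rRNA-linked and of several RNA-processing genes than WT CON. Of 2339 measured genes 185 (7.91%) were at least 2-fold higher and 217 (9.28%) at least 2-fold lower, and 404 with those listed at 0 in a whole condition, 187 higher and 217 lower. The median ratio was 0.913, or -0.13 on the log2 scale, and with it set to 0 the split was 238 higher and 153 lower.

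Flt1 gave 0.565 (0.5004 to 0.638), Emcn 0.641 (0.543 to 0.755), Kdr 0.737 (0.599 to 0.906) and Erg 0.519 (0.388 to 0.691). Over all measured genes the median ratio was 0.913, so most ratios were below 1, and 9.28% of genes were at least 2-fold lower. Of the 70 identity genes with a ratio, 51 were below 1 and 19 above, with a median of 0.731. At the 2-fold threshold 10 of them were lower and 0 higher. The 10 were Adgrl4, Angpt2, Acer2, Plxna4, Cables1, Esm1, Plpp1, Pcdh17, Garre1 and Adamts9. Adgrl4 stood at 31.0 CP10K untreated in WT and 13.6 in the mutant (0.437, 0.368 to 0.518).

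The 8 lowest genes by the naming rule were of mixed kinds. Ednrb gave 2.26 against 9.31 CP10K (0.243, 0.162 to 0.356), the protocadherin Pcdh17 2.07 against 8.17 (0.254, 0.166 to 0.379), the growth factor gene Pdgfd 6.09 against 19.5 (0.312, 0.244 to 0.396) and the adaptor Nedd9 5.08 against 15.03 (0.338, 0.257 to 0.442). In muscle cells Ednrb stood at 0.163 CP10K in mutant CON against 7.01 in WT CON. No other type reached the 20 counts asked of both columns together for Ednrb here, muscle included. Mb21d2, Car10, Trpm3 and the X-linked demethylase Kdm6a completed the 8. Outside them, Calcrl gave 0.375 (0.249 to 0.556), Bmpr2, the BMP type II receptor, 0.473 (0.363 to 0.614), and Pde4d 0.431 (0.382 to 0.487).

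On the high side, Gm19951 gave 39.7 against 6.45 CP10K (6.15, 4.86 to 7.87) and Rn18s-rs5 496 against 169 (2.94, 2.80 to 3.08). Cdk8 gave 68.5 against 19.3 (3.55, 3.08 to 4.11) and was 2-fold higher in 8 of 8 other types. The splicing-related genes Srrm2 (4.98, 3.44 to 7.43), Pnisr (5.53) and Prpf4b (4.56) and the RNA-binding Prrc2c (3.59) were higher, with 6, 3, 6 and 7 other types the same way. Plekhg5 rested on 27 counts against 1. Of the 8 genes kept from the rRNA-linked and mitochondrial list, 6 were 2-fold higher, namely Cmss1, Rn18s-rs5, Lars2, Camk1d, Gm19951 and Rn7sk. The last of these is the 7SK RNA, which is neither rRNA-linked nor mitochondrial. The rRNA-linked Gm19951 was 2-fold higher in 8 of 8 other types and Rn18s-rs5 in 7 of 8.

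The median gene length differed between the directions in some comparisons and less in others. The genes 2-fold higher in mutant CON spanned a median of 41.0 kb and those lower 134 kb, against 92.0 kb over all measured genes. WT FSK against WT CON gave 58.3 kb for the higher and 138 kb for the lower, WT Ex-4 against WT CON 44.5 and 134 kb, and mutant FSK against mutant CON 106 and 41.1 kb. Mutant Ex-4 against mutant CON gave 115 and 81.9 kb, and mutant against WT gave 99.3 and 89.9 kb with FSK and 87.1 and 109 kb with Ex-4. Its part in the differences was not tested.

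The treated pools of the genotypes completed the comparisons. Between mutant FSK and WT FSK, 225 of 2301 measured genes (9.78%) were at least 2-fold higher and 86 (3.74%) at least 2-fold lower, and 351 passed with those listed at 0 in a whole condition, 265 higher and 86 lower. On the high side by the same ranking stood Gcg, at 4.50 against 0.643 CP10K (6.99, 2.60 to 26.4), and Gnas at 5.81 against 1.45 (4.02, 2.02 to 9.09). Nrg1, Map3k15 and Slc16a10 had 0 counts in WT FSK against 26, 22 and 19 in mutant FSK, Mpzl1 and Sphkap had 1, and Auts2 had 7 against 82. Of the 5 beta markers kept, Iapp and Ptprn2 were at least 2-fold higher, and the beta-marker share of counts was 0.138% against 0.0643%, whose part in this side was not tested. This comparison shares its WT FSK column with that of FSK in WT, where Nrg1, Slc16a10, Mpzl1 and Auts2 were among the 8 lowest. Bmp6, a BMP ligand made by endothelium that signals iron load in liver, led the low side, at 1.38 against 12.7 CP10K (0.109, 0.0632 to 0.180). Over the 6 pools Bmp6 stood at 8.90, 12.7 and 13.1 CP10K in the WT pools and 4.90, 1.38 and 3.69 in the mutant ones, so every mutant pool was below every WT pool. The identity list gave a median of 0.833 with 2 of 56 genes 2-fold lower, Acer2 and Tspan18, and 0 higher, and Flt1 gave 0.934 (0.814 to 1.07).

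Mutant Ex-4 against WT Ex-4 gave the highest count of the 7 comparisons. Of 2299 measured genes, 337 (14.7%) were at least 2-fold higher and 416 (18.1%) at least 2-fold lower, and 775 passed with those listed at 0 in a whole condition, 357 higher and 418 lower. The median ratio was 0.823, or -0.28 on the log2 scale. Setting it to 0 turned the split to 470 higher and 237 lower, and rescaling without rRNA-linked and mitochondrial genes gave 417 and 320.

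Of 63 identity genes with a ratio, 28 were at least 2-fold lower and 1 higher, where all genes gave 18.1% lower, and the list median was 0.523. Among the BMP and TGF-beta genes, 7 of 9 were at least 2-fold lower, including Bmpr2 (0.360, 0.252 to 0.514), the inhibitory Smad6 (0.340, 0.248 to 0.467), Smad7, Tgfbr1, Tgfbr2, Smad5 and Bmp6 (0.281, 0.194 to 0.403). Of 17 endothelial transcription factors, 7 were lower, among them Fli1, Ets1 and Tcf4, and 1, Bcl6b, higher. Of 12 basement membrane genes with a ratio, 6 were lower, and the matrix protease Adamts9, picked after its values were seen, gave 7.37 against 27.4 CP10K (0.269, 0.209 to 0.346). All 5 beta markers were at least 2-fold higher, Ptprn2 by 6.01 times (3.51 to 11.2).

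By family over all pools, the vascular lists below were higher in mutant FSK than in the other mutant pools. The 12 basement membrane genes measured throughout took 1.16%, 1.24% and 1.18% of counts in WT CON, FSK and Ex-4 and 0.834%, 1.12% and 0.622% in mutant CON, FSK and Ex-4. The 15 junction genes took 0.770%, 0.799% and 0.727% in the WT pools and 0.571%, 0.713% and 0.446% in the mutant ones. The BMP and TGF-beta genes had WT shares of 0.676%, 0.777% and 0.717% and mutant shares of 0.436%, 0.468% and 0.298%. For these 3 lists every mutant pool was below every WT pool, with mutant FSK closer to the WT pools in the first 2 than in the last. In the first 2 the counting intervals of mutant FSK overlapped those of WT pools, so its order there is within counting error. For basement membrane they were 1.07% to 1.18% against 1.10% to 1.22% in WT CON. For junction they were 0.670% to 0.758% against 0.658% to 0.802% in WT Ex-4. The Notch genes ran from 0.277% in mutant Ex-4 to 0.426% in WT FSK. The Mediator genes, which are not vascular, had another order, with 0.330%, 0.690% and 0.322% in the WT pools and 0.824%, 0.452% and 0.799% in the mutant ones. Cdk8 alone held 236 of the 404 Mediator counts in WT CON, 335 of 429 in WT FSK and 1091 of 1312 in mutant CON. The sum thus mostly follows Cdk8 there and does not describe the family as a whole.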

How the data were processed

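Nuclei of hand-picked, cultured islets were sorted on DAPI and barcoded by split pooling, with the first barcode marking the condition. Per the labels the build was mm39. The authors removed nuclei of extreme depth or high mitochondrial share, integrated and clustered the rest and named the clusters from their markers. The annotation release, and whether raw or corrected counts were pooled, are not given in the sources used here. The deposited values are natural log values made by the authors, ln(1 + 10000 × count / column total), 1 for each gene, condition and cell type. Undoing the log gave counts that were whole within 0.001 for 100% of values (largest distance 6.39e-05). No column lacked a condition.

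Levels are counts per 10000 with exact Poisson intervals, ratios have exact conditional binomial intervals and shares Clopper-Pearson intervals (all 95%). A count of 0 was set to a floor of 3 counts per column for bounds. Genes needed 60 counts over the 6 endothelial columns, and a difference was counted at 2-fold, since no test across pools exists. Genes without a count in any of the 9 cell types of a condition had no ratio there, a choice made after seeing the data, and counts with and without them are both given. For each of the first 5 comparisons the named genes were the 8 on either side whose interval bound nearest to 1 lay furthest from 1. List members and the 15 genes of greatest fold over the highest other type were named too. Endothelial columns hold 55536 to 159305 counts, so that intervals are widest in the treated WT pools. Genes that overlap or share sequence could not be told apart in the pooled counts.

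The members, the 30 gene lists and the comparisons were chosen with earlier results of these data known. Gene positions came from GRCm39 (GENCODE M39) and promoters from a RefSeq table on GRCm38.p6. Scripts were tested on simulated data. Alternatives changed the count minimum, the fold, the scale, the centring, the column totals and the reference cell types. Computations ran in Python 3.11.15 with matplotlib 3.10.9, scipy 1.17.1, pandas 2.3.3 and numpy 2.4.6.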

Additional observations from a re-analysis of the deposited data

Results flagged for a closer look

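Of the genes measured in both genotypes, 31 with FSK and 54 with Ex-4 were at least 2-fold higher than untreated in one genotype and at least 2-fold lower in the other. With FSK, 9.69% of genes lower in WT were higher in the mutant, against 7.87% of all genes. Of those higher in WT, 4.26% were lower in the mutant, against 4.30% of all. The FSK count is thus near the shares over all genes. With Ex-4 these shares were 19.0% against 3.70% and 5.37% against 5.26%. Of the 31 and 54 genes, those covered by the naming rule were 9 and 13, and for 6 and 11 of these both counting intervals left out 1. These are given here. With 1 pool per condition the differences between genotypes were not tested. With FSK, Car10 gave 0.394 in WT and 6.98 in the mutant, on 35 counts in WT CON and 6 in mutant CON. Cdk8 gave 2.79 and 0.458, and Gm19951, which is rRNA-linked, gave 2.74 and 0.243. Pnisr gave 2.76 and 0.459, while Gcg gave 0.254 and 2.87 and Trpm3 0.293 and 3.77. Gm19951 was 2-fold lower with FSK in 8 of 8 other cell types of the mutant.

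With Ex-4, genes of endocrine cells made up most of the set, each lower in WT and higher in the mutant. Abcc8 gave 0.413 and 2.42, Car10 0.189 and 4.90, and Kcnmb2 0.105 and 2.07. Pcsk2 gave 0.217 and 2.12, Ptprn2 0.183 and 2.03, and Trpm3 0.0894 and 2.59. Gcg gave 0.142 and 2.22, Ddc 0.210 and 3.596, and Slc16a10 0.1696 and 2.82. The sialomucin Podxl, an endothelial gene, went the other way at 2.68 in WT and 0.437 in the mutant, as did Plekhg5 at 15.4 and 0.466, where WT CON held 1 count.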

How the results depend on the processing

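No paired analysis was possible because each condition and cell type has 1 pooled value, and leaving out a replicate was likewise not possible. The counts of genes past 2-fold are given in the order WT FSK, mutant FSK, WT Ex-4, mutant Ex-4 (each against its CON), then mutant against WT in CON, FSK and Ex-4. A minimum of 30 counts gave 1171, 728, 1282, 671, 992, 1074 and 1614, and a minimum of 120 gave 141, 128, 112, 69, 179, 97 and 371. With 30 counts the split between higher and lower turned in 3 comparisons, to 343 higher and 385 lower for mutant FSK, 590 and 402 for mutant CON against WT CON, and 929 and 685 for mutant Ex-4 against WT Ex-4. No minimum, with zeros at the floor of 3 counts, gave 3956, 4613, 4942, 4055, 4566, 5342 and 5273. The split then turned in 6 of 7, to 2942 higher and 1014 lower, 2109 and 2504, 4166 and 776, 2345 and 1710, 2457 and 2109, and 975 and 4367 in that order, while the last kept its direction at 1186 and 4087. A floor in counts is a higher level in a shallow column, and the treated WT columns were the shallow ones. A 1.5-fold threshold gave 969, 822, 887, 744, 1023, 819 and 1364, and differences of log2(CP10K + 1) gave 121, 58, 111, 34, 102, 90 and 298. These follow from testing more or fewer genes or from a looser or stricter call. Asking for 20 counts in the 2 pools together, chosen after seeing the data, took WT Ex-4 to 252 and left the other 6 within 1.5 times. Setting the median ratio to 0, rescaling without rRNA-linked and mitochondrial genes, and leaving out genes listed at 0 in a whole condition kept all 7 within 1.5 times, though the split between higher and lower changed as given above. For mutant CON against WT CON the rescaling gave 209 higher and 177 lower. WT FSK held 0.508 times the counts of WT CON, so equal counts in both give a ratio just under 2.

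The 71 identity genes became 396 against the median of the other types, 185 at 2-fold and 130 against the 6 types with at least 10000 counts in every column, and stayed between 65 and 71 under the mean of conditions, without WT CON, with 30 counts and with counts of 1 and 2 also set to the floor. The endothelial share of counts moved to 61.1%, 36.3%, 34.4%, 50.2%, 53.0% and 51.7% of non-endocrine counts (WT CON, FSK, Ex-4, then mutant). Without rRNA-linked and mitochondrial genes it was 1.53% in WT FSK, 1.43% in WT Ex-4, 4.40% in mutant CON and 4.22% in mutant Ex-4. With at most 159305 counts in a pool, genes under about 1 CP10K have wide intervals.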
